A study of Mus musculus with 4 samples.

Results

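The genes described here are 7 products of the differentiated trophectoderm, the outer epithelium of the blastocyst: the keratin genes Krt8 and Krt18, the sodium pump subunit genes Atp1b1 and Atp1b3, the water channel gene Aqp3, the endocytic adaptor gene Dab2 and the prostaglandin synthase gene Ptges. They were chosen by symbol, and all 7 had a row, and an adjusted p-value, among the 13658 genes that the authors' deposited table lists. Polyadenylated RNA came from 4 samples of mouse morulae, the compacted embryos from which the blastocyst forms. The embryos were wild-type per the labels, which give no strain, no number of embryos per sample and no statement that replicates were separate injections. Fertilized eggs had received 4 to 5 pL of 100 µM small interfering RNA and were then kept in M16 medium, with either a non-targeting pool (siNT, 2 samples) or a pool against Nr1h2 (siNr1h2, 2 samples). Nr1h2 encodes LXRβ, a nuclear receptor activated by oxysterols, and per the authors' deposited table its transcript stood at 19.9% of the siNT level after the siNr1h2 injection (95% interval 15.4% to 25.7%). The table gives 1 comparison and no value per sample, so the spread between replicates is known only through the standard errors, the depth of each sample is unknown, and p-values may reflect technical spread.

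Cells on the outside of the morula become trophectoderm, which seals itself into an epithelium and pumps fluid into the blastocyst cavity. Keratins 8 and 18 pair into the first intermediate filaments of the embryo. The sodium pump moves sodium ions across the basolateral membrane, and water follows through channels such as aquaporin 3. Dab2 links receptors of the low-density lipoprotein receptor family to clathrin, and Ptges makes prostaglandin E. A morula sample holds outer and inner cells together, so that fewer cells of a type and less RNA per cell cannot be told apart in any value below.

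Of the 7 genes, 3 were lower in siNr1h2 than in siNT morulae at an adjusted p under 0.05 per the authors' deposited table, none was higher, and 4 did not pass. The lower genes were Ptges, Krt8 and Dab2, each at 70% to 74% of the siNT level. Over all 12069 genes with an adjusted p, 1.52% were called lower and 0.456% higher. Among the 2349 genes whose mean normalized count was 1000 or more, where 5 of the 7 genes lie, 2.64% were called lower and 0.468% higher. Log2 fold changes of 6 of the 7 were below 0 and that of Aqp3 above 0, and their median was -0.32 (authors' deposited table). The median was 0.00 over all genes with an adjusted p and -0.05 over those whose mean normalized count was 1000 or more. A fold change below 0 was found for 49.4% and 61.9% of these genes, respectively. At an unadjusted p under 0.05, 5 of the 7 genes lay below 0 and 1 above, against 13.3% of all genes with an adjusted p in either direction. No test was made over the 7 genes as a list, since they were picked with results of these data known.

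**Figure D1:**
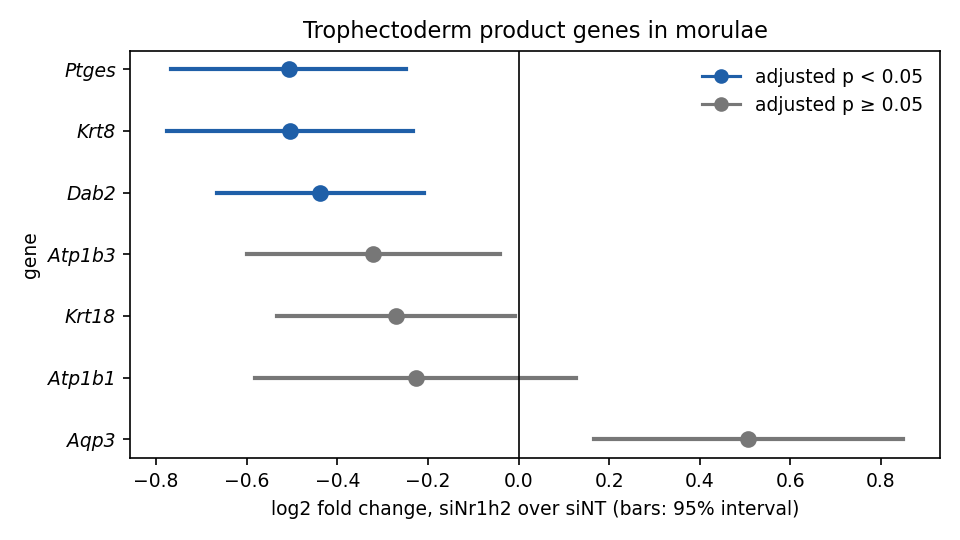
Log2 fold change of the 7 genes in siNr1h2 over siNT morulae (x axis) by gene (y axis), from the authors' deposited table; points are the estimates, bars the 95% intervals, and blue marks an adjusted p under 0.05. The intervals of Ptges, Krt8 and Dab2 lie furthest below 0, those of Atp1b3 and Krt18 end just below 0, that of Atp1b1 crosses it and that of Aqp3 lies above it.

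The keratin pair was measured at similar levels. The mean normalized count over the 4 samples was 1320.8 for Krt8, which encodes the type II partner, and 1166.6 for Krt18, which encodes the type I partner, in the authors' deposited table. Per kilobase of the longest coding transcript in GENCODE M21, this is 675 for Krt8 and 812 for Krt18, a ratio of 0.831. Krt8 was 1.42 times lower in siNr1h2 morulae (95% interval 1.18 to 1.71; log2 fold change -0.50 ± 0.14, SE; adjusted p = 0.0211) in the authors' deposited table. Taking that mean and fold with 2 samples per group gives levels of about 1549.6 in siNT and 1092.1 in siNr1h2. Krt18 pointed the same way at a log2 fold change of -0.27 ± 0.13 but missed the threshold (adjusted p = 0.362, authors' deposited table). Its 95% interval ran from 1.00 to 1.45 times lower and overlapped that of Krt8. With its standard error, Krt18 would have needed a change of 1.36 times to be called. The difference between the keratins was not tested, because the covariance of their estimates needs values per sample.

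Reads of the keratin genes can also match processed pseudogenes. In GENCODE M21, a transcript of Krt8-ps matches 48.1% of the Krt8 transcript at 98.6% identity, and one of Gm5200 matches 88.2% of the Krt18 transcript at 90.5% identity. Neither pseudogene has a row of its own among the genes analysed. How reads with several matches were counted is not given in the sources used here, so both keratin values are uncertain to that extent.

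Krt8 and Krt18 are neighbouring protein-coding genes on mouse chromosome 15 in RefSeq (GRCm38.p6), and Dab2 lies on the same chromosome. The 250 bases upstream of the RefSeq start are shown for the keratin pair, of which only Krt8 was called lower. They are also shown for Dab2 and Ptges, both called lower. These windows are given because the receptor targeted here binds DNA through copies of AGGTCA. Capitals mark matches, on either strand, to the nuclear receptor half-site AGGTCA, to GGAATG, the core of sites for TEAD factors, and to GCCNNNGGC, bound by AP-2 factors. They also mark AGATAA, a site for factors of the Gata family, CACCC, which Kruppel-like factors bind, and TGANTCA, the AP-1 site. Marked matches do not overlap in these 4 windows. The sequences are from RefSeq on build GRCm38.p6, 5′ to 3′ on the coding strand, at chr15:102004343-102004592 (minus strand), chr15:102027966-102028215 (plus strand), chr15:6299539-6299788 (plus strand) and chr2:30903298-30903547 (minus strand); that build differs from the mm9 of the submitters' processing notes.
Krt8: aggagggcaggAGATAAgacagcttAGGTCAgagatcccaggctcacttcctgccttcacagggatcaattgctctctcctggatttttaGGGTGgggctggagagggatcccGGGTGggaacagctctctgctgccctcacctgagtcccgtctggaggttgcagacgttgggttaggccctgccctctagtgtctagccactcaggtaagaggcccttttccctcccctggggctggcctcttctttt
Krt18: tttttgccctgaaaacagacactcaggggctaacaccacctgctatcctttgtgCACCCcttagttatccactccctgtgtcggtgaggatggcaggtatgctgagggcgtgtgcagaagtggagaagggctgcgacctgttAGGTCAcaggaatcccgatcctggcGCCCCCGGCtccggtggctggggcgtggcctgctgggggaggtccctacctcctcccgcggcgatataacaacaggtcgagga
Dab2: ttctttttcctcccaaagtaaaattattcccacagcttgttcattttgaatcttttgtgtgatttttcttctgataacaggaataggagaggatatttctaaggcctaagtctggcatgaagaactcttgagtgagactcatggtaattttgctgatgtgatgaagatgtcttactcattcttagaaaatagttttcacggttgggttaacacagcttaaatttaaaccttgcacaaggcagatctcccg
Ptges: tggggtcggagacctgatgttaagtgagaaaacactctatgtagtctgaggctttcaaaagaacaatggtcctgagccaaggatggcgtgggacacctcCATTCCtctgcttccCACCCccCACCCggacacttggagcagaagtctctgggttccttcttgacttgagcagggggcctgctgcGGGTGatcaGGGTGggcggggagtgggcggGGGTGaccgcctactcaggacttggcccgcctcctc

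AGGTCA was present in the windows of Krt8, 225 to 220 bases before the start, and of Krt18, 108 to 103 bases before it, and in none of the other 5 genes' windows. Of 27025 RefSeq promoter windows of this length, 13.8% held it. An exact copy of the liver X receptor element, a direct repeat of this half-site spaced by 4 bases, was in none of the 7 windows and in 0.0111% of all. Only exact letters were sought, so elements whose letters differ were not counted. Krt8 also held AGATAA, found in 10.3% of windows, Krt18 held GCCNNNGGC, found in 13.6%, and Ptges held GGAATG, found in 12.6%. CACCC was in 6 of the 7 windows, with Dab2 the exception, and in 51.3% of all windows. TGANTCA was in none of the 7 and in 6.87% of all. The Dab2 window, at 36.8% G and C, held no match to any of these letters, and the second RefSeq windows of Dab2 and Atp1b3 were not searched. These matches describe letters in a short window and say nothing of binding.

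Ptges, the inducible synthase of prostaglandin E, had a mean normalized count of 1967.1 in the authors' deposited table. It was 1.42 times lower in siNr1h2 morulae (95% interval 1.19 to 1.70; log2 fold change -0.51 ± 0.13, SE; adjusted p = 0.0123), the smallest p of the 7, in the authors' deposited table. The corresponding levels are about 2309.7 in siNT and 1624.4 in siNr1h2. Dab2 was the most abundant of the 7, with a mean normalized count of 4997.6, higher than that of 96.4% of genes, in the authors' deposited table. It was 1.35 times lower (1.16 to 1.59; log2 fold change -0.44 ± 0.12; adjusted p = 0.0155) in the authors' deposited table, which corresponds to about 5750.4 in siNT and 4244.8 in siNr1h2. The call for Dab2 was lost when a trend of the fold change with transcript length and GC content was removed (log2 fold change -0.37, adjusted p = 0.0805), whereas Krt8 (adjusted p = 0.00478) and Ptges (adjusted p = 0.00850) passed under the same correction. All 3 calls were lost at an adjusted p of 0.01, under Holm adjustment, against a minimum change of 1.2 times and with a t distribution of 2 degrees of freedom, under which no gene passed, Nr1h2 included.

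The glycosylated β subunit of the sodium pump is needed for the pump to reach the membrane. Neither β subunit gene passed. Atp1b3 stood at a log2 fold change of -0.32 ± 0.14 (SE; adjusted p = 0.284) and Atp1b1 at -0.23 ± 0.18 (adjusted p = 0.635), both from the authors' deposited table. Their mean normalized counts were 1248.3 and 765.25, or 626 and 297 per kilobase of transcript, from the authors' deposited table. The 95% interval of Atp1b3 was 1.03 to 1.52 times lower, and that of Atp1b1 ran from 1.496 times lower to 1.09 times higher. Changes of 1.38 and 1.51 times, respectively, would have been needed for a call, so a decrease of the size seen for Krt8 could have been called for Atp1b3 but not for Atp1b1. A processed pseudogene of Atp1b3, Gm1848, matches 40.4% of its transcript at 96.4% identity.

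Aqp3, a channel for water and glycerol, was the 1 gene of the 7 with a value above 0. Its log2 fold change was 0.51 ± 0.17 (SE), or 1.42 times higher (95% interval 1.12 to 1.80), and its mean normalized count was 927.11 (authors' deposited table). It did not pass the authors' Wald test over all genes (adjusted p = 0.106). A change of 1.49 times would have been needed for a call. The levels that correspond to these values are about 765.74 in siNT and 1088.5 in siNr1h2. Its interval does not overlap that of any of the other 6 genes, all of which had negative estimates, but the difference was not tested.

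**Figure D2:**
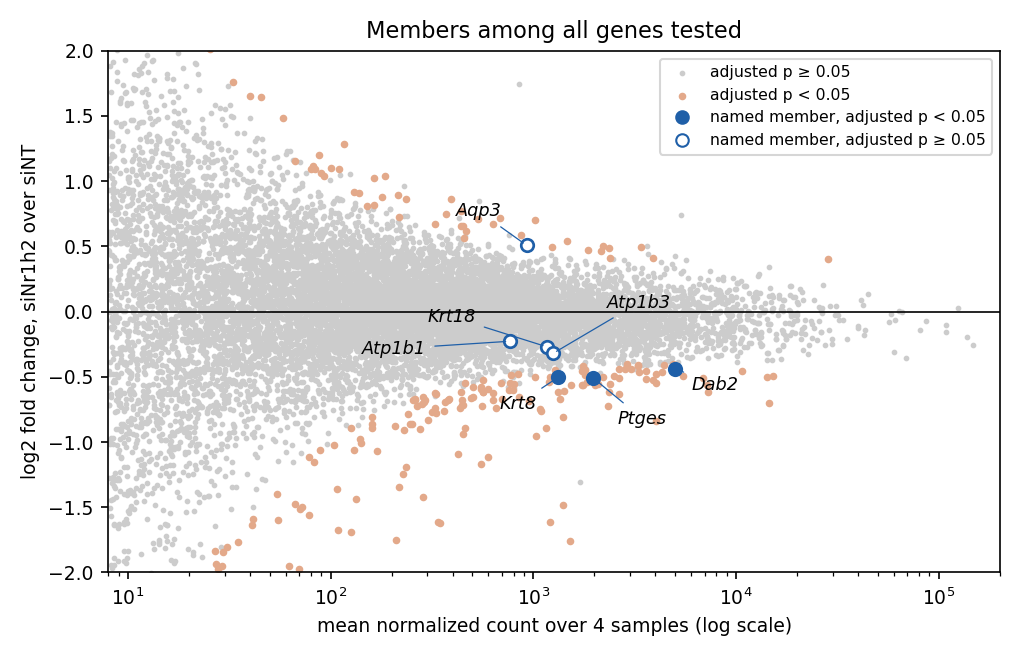
Log2 fold change in siNr1h2 over siNT morulae (y axis) against the mean normalized count over 4 samples (x axis, log scale) for genes with an adjusted p in the authors' deposited table; orange marks an adjusted p under 0.05, large circles are the 7 genes, and 92 genes beyond ±2 are not shown. Krt8, Ptges and Dab2 sit at the edge of the band of called genes, with Krt18, Atp1b3 and Atp1b1 inside the uncalled genes below 0 and Aqp3 above 0.

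Per kilobase of transcript, the order of mean levels was Dab2 (1072), Krt18 (812), Krt8 (675), Atp1b3 (626), Ptges (539), Aqp3 (525) and Atp1b1 (297). The table gives no spread for these means, so neighbours in that order cannot be said to differ. All 7 had mean normalized counts above those of 79.1% of genes or more in the authors' deposited table. Their standard errors were 0.12 to 0.18 on the log2 scale. The values of Krt8, Krt18 and Atp1b3 remain uncertain where reads match the pseudogenes named above.

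Of 22 other keratin, desmosome and keratin-associated genes, 14 had an adjusted p (authors' deposited table). Of these, 0 were lower, 1 was higher and 13 did not pass, and their median log2 fold change was 0.10. Over all genes with an adjusted p, 1.98% were called in either direction. Counts of 0 or 1 in this list and those below are too small to set against that share. The higher gene was Krtcap2 (0.41 ± 0.12, SE; adjusted p = 0.0458, authors' deposited table), which despite its name encodes a subunit of the oligosaccharyltransferase. Its call was lost under several settings, among them adjustment over every gene (adjusted p = 0.0519). Krt19 (-1.55 ± 0.87) and the plakophilin gene Pkp3 (1.08 ± 0.62) missed the threshold (authors' deposited table) and had mean normalized counts of 10.1 and 19.5.

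Of 28 other genes of the sodium pump and of ion transport, 13 had an adjusted p, 1 was lower, 0 were higher and 12 did not pass per the authors' deposited table, and the median log2 fold change was 0.12. The lower gene was Slc12a2, the sodium, potassium and chloride cotransporter, at 1.41 times lower (95% interval 1.18 to 1.69; adjusted p = 0.0166) in the authors' deposited table. Like that of Dab2, its call was lost when the length and GC trend was removed (log2 fold change -0.42 against -0.50, adjusted p = 0.0826). Of 11 other water channel genes, 2 had an adjusted p and neither passed, Aqp9 at -0.29 ± 0.15 and Aqp11 at -0.39 ± 0.47 in the authors' deposited table. Aqp8, at a mean normalized count of 2.29, was left without an adjusted p. None of the 4 water channel genes other than Aqp3 with a row had an unadjusted p under 0.05.

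Of 27 other genes of the prostaglandin pathway, 12 had an adjusted p, 1 was lower, 0 were higher and 11 did not pass (authors' deposited table), with a median log2 fold change of -0.06. The lower gene was Akr1b8, an aldo-keto reductase, at 1.79 times lower (95% interval 1.53 to 2.09; adjusted p = 3.01e-10) in the authors' deposited table and with an interval that overlaps that of Ptges. Akr1b8 belongs to a family of close relatives, so its value is uncertain where reads were shared. The other prostaglandin E synthase genes did not follow Ptges past the threshold. Ptges2 stood at 0.41 ± 0.17 (adjusted p = 0.246) and Ptges3, which also serves as an Hsp90 co-chaperone and was named here besides the rule, at -0.17 ± 0.13 (adjusted p = 0.619), per the authors' deposited table. The exporter gene Abcc4 stood at -0.67 ± 0.28 (adjusted p = 0.254) in the authors' deposited table.

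Of 27 genes for cargo receptors, clathrin and other partners of Dab2, 25 had an adjusted p and 0 passed in either direction in the authors' deposited DESeq2 comparison. Of all genes with an adjusted p, 1.98% were called, and a count of 0 in 25 is too small to set against that share. At an unadjusted p under 0.05, 1 was lower and 2 were higher, and the median log2 fold change was 0.06. The lower one was Lrp2, or megalin, the receptor that Dab2 carries into the cell, at -0.29 ± 0.11 (SE; adjusted p = 0.1997), with Lrp1 at 1.37 ± 0.48 and the epsin gene Epn1 at 0.94 ± 0.42 above 0 in the authors' deposited table. Lrp1 and Epn1 had low mean normalized counts, 34.3 and 54.3, and neither passed. Lrp2 was nearly as abundant as Dab2, with a mean normalized count of 4627.2. It was called lower when values were centred on ribosomal protein genes (adjusted p = 0.0203), which shifts every value down by 0.11.

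**Figure D3:**
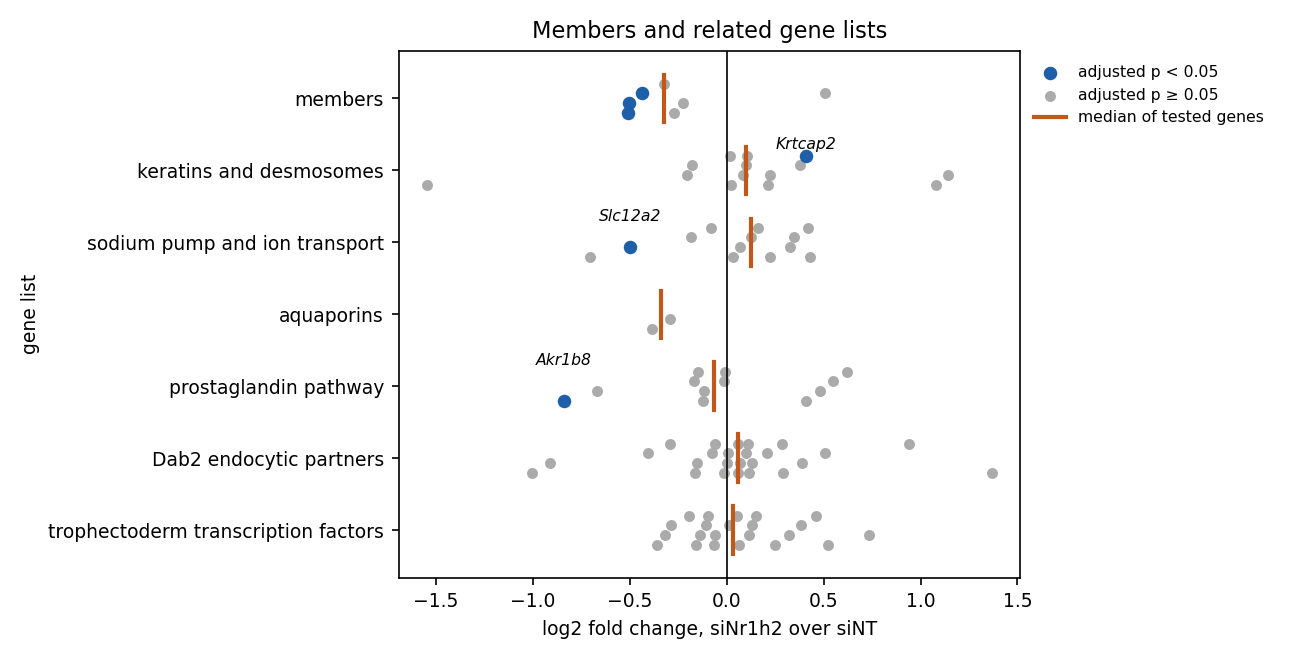
Log2 fold change in siNr1h2 over siNT morulae (x axis) of the 7 genes and of 6 related gene lists without them (y axis), for genes with an adjusted p in the authors' deposited table; each point is a gene, blue marks an adjusted p under 0.05 and the vertical bar is the median. The 7 genes have a median of -0.32, while the medians of the keratin, ion transport, prostaglandin, endocytic and transcription factor lists lie between -0.06 and 0.12, and that of the water channels rests on 2 genes. The lists also differ in abundance. Over genes with a row, the median mean normalized count is 1248.3 for the 7 genes. It runs from 89.9 (ion transport) to 304 (transcription factors) in the lists whose medians are given.

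No transcription factor on the list of those that specify the trophectoderm was called, against 1.98% of all genes with an adjusted p. A count of 0 in a list of this size is too small to set against that share. Of 25 such genes, 22 had an adjusted p and 0 passed in the authors' deposited DESeq2 comparison, with 1 lower and 0 higher at an unadjusted p under 0.05 and a median log2 fold change of 0.03. The smallest p-values were those of Sbno1 (-0.32 ± 0.13, SE; adjusted p = 0.2498), Tead1 (-0.36 ± 0.19) and Elf3 (-0.19 ± 0.12) in the authors' deposited table. Sbno1 was called lower when centred on ribosomal protein genes (adjusted p = 0.0411). Cdx2 (0.01 ± 0.23), Gata3 (-0.11 ± 0.17) and Tead4 (0.06 ± 0.16), named here besides the rule as the best known of them, missed the threshold (authors' deposited table). Their 95% intervals allow changes of up to 1.37, 1.35 and 1.29 times.

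Rows for other cell types were few, and all but that of Cd68 had low mean normalized counts. Of 14 markers of cumulus and granulosa cells, which surround the egg, 4 had a row, with mean normalized counts of 1.94 to 29.6 that sum to 48.8, against 765.25 for the least abundant of the 7 genes. All 4 had log2 fold changes below 0 and 0 passed in the authors' deposited DESeq2 comparison, with Kitl at -1.66 ± 0.79 (unadjusted p = 0.0372) and Star at -0.74 ± 0.50. The defining markers Fshr and Amh had no row. Of 9 blood and immune markers, 4 had a row, with a summed mean normalized count of 182, of which Cd68 made up 150. That mean is higher than that of 50.9% of genes, so Cd68 was not low among them. Of 14 trophectoderm markers, which include Krt8 and Krt18, 13 had a row, 8 below 0 and 5 above, and 1, Krt8, was lower. Their median log2 fold change was -0.13. At an unadjusted p under 0.05, 3 of them lay below 0, Krt8 and Krt18 among them, and 1 above, Bmp8b. Bmp8b, at a mean normalized count of 17.7, stood at 1.65 ± 0.67 (SE; adjusted p = 0.216) in the authors' deposited table. Of 10 inner cell mass markers, all with a row, 5 lay below 0 and 5 above, and their median was 0.02 on the log2 scale. Of these 10, 1 was lower, Tdgf1, at -0.52 ± 0.16 (SE; adjusted p = 0.0489, authors' deposited table), a call that was lost with adjustment over every gene (0.0553), without Gm and Rik models (0.0508), centred on genes whose mean was 500 or more (0.0820) and with the length and GC trend removed (0.1525), among other settings. Pou5f1 stood on the other side of 0, at 0.43 ± 0.15 (adjusted p = 0.117, authors' deposited table). Whether the markers that lie below 0 have a part in the values of the 7 genes was not tested.

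**Figure D4:**
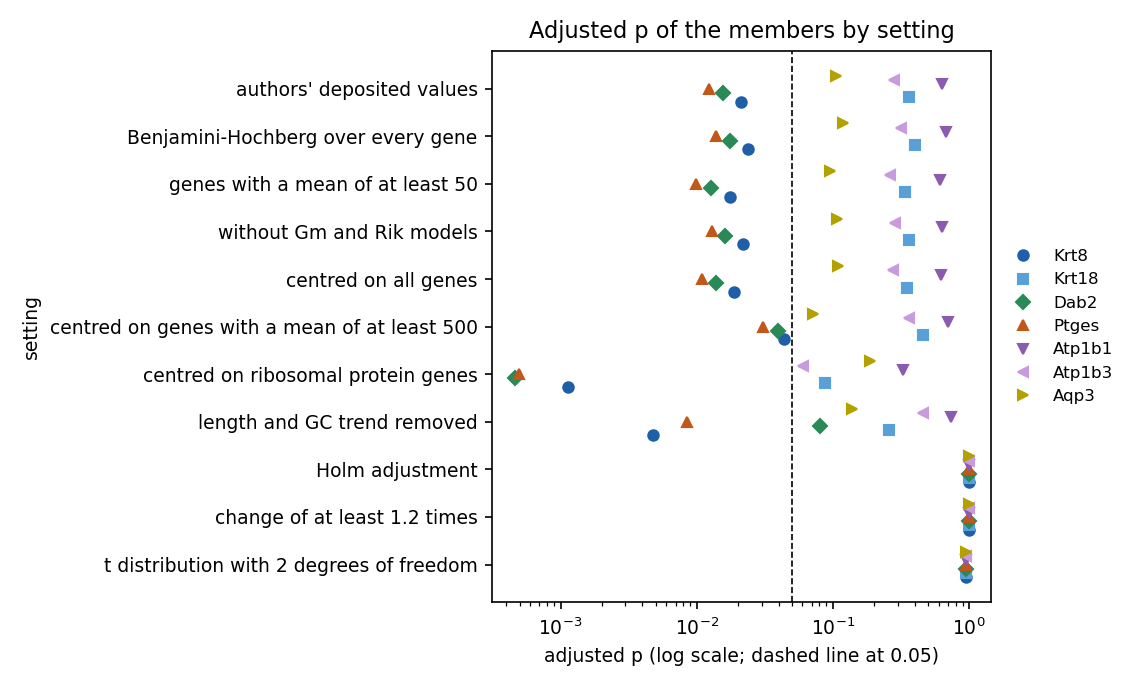
Adjusted p-value (x axis, log scale) of each of the 7 genes (symbols) under the deposited values and 10 other settings (y axis), with a dashed line at 0.05. Ptges and Krt8 stay left of the line in 7 of the 10 other settings and Dab2 in 6, and all 7 genes lie near 1 under Holm adjustment, a minimum change of 1.2 times and a t distribution.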

How the data were processed

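RNA of 4 morula samples (2 siNT, 2 siNr1h2) was made into full-length cDNA with SMART-Seq v4 and tagmented with Nextera XT, per the labels' protocols. The submitters' processing notes name DESeq2, edgeR, Cufflinks 2.2.1, RSEM, HTSeq 0.12.4 and STAR, with build mm9 and without role or order. The authors' deposited table gives, per the file headers, the mean normalized count (a signal value), the log2 fold change of siNr1h2 over siNT with its standard error, the Wald statistic (a score), and the p-value and adjusted p-value. The deposited statistic equalled fold change over standard error, and the adjusted p that of a Benjamini-Hochberg adjustment over 12069 genes, with none for 1589 others, whose means were 8.00 or less. The table has 0 columns per sample, so no test was refitted. Intervals are 1.96 standard errors. Levels per group were computed from the mean and the fold for equal group sizes, and approximate the fitted ones.

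The 7 genes, the 6 related lists and the 4 marker lists were chosen with earlier results of these data known. The text names all 7, Nr1h2, and in each list every called gene and otherwise the 3 with the smallest p, with exceptions stated; the values of 2 genes that this rule names are not reported here. Lengths, GC content and similar transcripts (BLAST 2.17.0, at least 90% identity over 25% of the transcript) came from GENCODE M21 (GRCm38), by symbol for 99.3% of genes. Promoter windows, first entry per gene, came from RefSeq for all 7. Python 3.11.15, pandas 2.3.3 and scipy 1.17.1 were used, and scripts were tested on simulated data. There were 12 alternatives, on threshold, adjustment, filter, centring, reference distribution, minimum change, gene models, and length and GC content.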

Additional observations from a re-analysis of the deposited data

How the results depend on the processing

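The directions of all 7 genes held under the 3 centrings and the length and GC correction, the 4 of 12 alternatives that change the fold. The centres subtracted were 0.0042, -0.038 and 0.106. Each is smaller in size than any of the 7 values (nearest to 0, Atp1b1 at -0.23), so no centring could reverse a direction. The count of 3 lower genes became 0 at an adjusted p of 0.01, under Holm adjustment, against a minimum change of 1.2 times and with a t distribution of 2 degrees of freedom, and stood at 2 or 3 elsewhere. Unadjusted, 0 of the 7 had p under 0.05 in each of the last 2. With the t distribution the threshold was out of reach for any gene, so that count says nothing about stability; for the others the cause was not tested. Across the 10 alternatives that kept the threshold, adjusted p ran from 0.00113 to 1.0 for Krt8, 0.000462 to 1.0 for Dab2 and 0.000493 to 1.0 for Ptges, and from 0.0711 for Aqp3, 0.0606 for Atp1b3, 0.0876 for Krt18 and 0.330 for Atp1b1. The single called gene of the keratin list was lost (0 called) under 0.01, Holm, adjustment over every gene, centring on ribosomal protein genes, the length and GC correction, the minimum change and the t distribution. That of the ion transport list was lost (0 called) under 0.01, Holm, the length and GC correction, the minimum change and the t distribution, and that of the prostaglandin list (0 called) under the t distribution. Centring on ribosomal protein genes gave 1 called gene each in the endocytic and transcription factor lists. Over all genes, the 239 calls became 109 at 0.01, 395 at 0.1, 49 under Holm, 39 against the minimum change, 478 (442 lower, 36 higher) centred on ribosomal protein genes and 0 with the t distribution, where the smallest adjusted p was 0.948 and 68 genes had an unadjusted p under 0.05. With values centred on genes whose mean was 500 or more, 142 were lower and 82 higher, against 184 and 55. No paired analysis was possible because the table holds no values per sample, and leaving out replicates, edgeR and a DESeq2 refit were not run for the same reason.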
